A study of Homo sapiens with 20 samples.

Results

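CTCF sites that carried a peak in control cells of both LNCaP and IMR90, and had no peak in either line once CTCF was depleted, numbered 5458 of the 33377 CTCF sites of control LNCaP cells on chromosomes 1 to 22 and X, or 16.4% (95% Wilson interval 16.0 to 16.8%). A LNCaP control site was a set of peaks overlapping by at least 1 bp with a peak in both control siRNA libraries. The sites lost in both lines were chosen by the presence and absence of peaks in 8 libraries: a peak in both controls of each line with the standard protocol, and none in any of the 4 standard libraries of CTCF-depleted cells. A lost site is therefore one whose peak fell below the authors' calling threshold, and the lists cannot show how far its binding fell.

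The data were ChIP-seq peak and region lists from 20 libraries, 2 in each of 10 conditions. LNCaP is a prostate cancer cell line and IMR90 a lung fibroblast line. Cells received 20 nM of a pooled non-targeting control siRNA or a pooled CTCF siRNA, with a second transfection halfway to harvest at 144 h, although the protocol text of the 4 standard IMR90 samples names LNCaP in place of IMR90. CTCF was profiled in LNCaP, in IMR90 with the standard protocol and again in IMR90 with a low-cell kit, and H3K4me3 and H3K27ac were profiled in LNCaP. Each replicate was deposited as a separate list, and the labels do not say whether replicates were separate cultures. The p-values below measure only the spread between libraries.

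CTCF is a zinc-finger protein that binds a long, oriented DNA motif and halts the cohesin ring as it extrudes chromatin loops. Bound CTCF marks the anchors of loops and the borders of topologically associating domains, and it can insulate genes from enhancers on the far side of a border. Its sites differ widely in how closely they match the motif, and many are bound in most cell types.

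The sequences under the strongest of these sites are shown first, as single examples of how such sites match the motif. Each is read from the GRCh37 (hg19) reference on the strand of the match, with the best match to the 14-base CTCF consensus in capitals and 8 flanking bases on each side in lower case. The coordinates are those of the capitals. The first 4 lines are the matches at those of the 6 strongest sites lost in both lines that had one within 2 mismatches. The last 2 lines, chosen after their values were seen, come from very strong sites that stayed bound in both lines after depletion. The strongest site of that kind, at chr17:17259261-17259813, had no match within 2 mismatches and is not printed.
Lost, intergenic, nearest start LINC01581, chr15:94663341-94663354, minus strand: agaatagcCCACAAGATGGCAAcatgattt
Lost, intron of LINC01962, chr5:180609108-180609121, plus strand: gcctacagGCAGGAGATGGCGCcaacagca
Lost, intron of BPIFB4, chr20:31683982-31683995, plus strand: agctccagCCAGCAGGTGGACCcctcaatc
Lost, intron of KCNA2, chr1:111158556-111158569, minus strand: ccatgtggCCATTGGGTGGCACtgttggat
Persistent, intergenic, nearest start ASPG, chr14:104544454-104544467, plus strand: aggcgttgCCGGCAGAGGGCACtggaggga
Persistent, intergenic, nearest start ENSG00000250728, chr5:110494001-110494014, plus strand: acattgtgCCAGTAGATGACGAcaccatct
All 4 matches at the lost sites had 2 mismatches to the consensus. Positions are counted from 1 at the first capital. The LINC01581 site departed from the consensus at positions 5 and 14, the LINC01962 site at 1 and 5, the BPIFB4 site at 12 and 13, and the KCNA2 site at 4 and 6. The persistent site near ASPG had 1 mismatch, at position 3, and the other had 2, at positions 11 and 14, so 2 mismatches are found on both sides. CTCF fold enrichment at the ASPG site was 64.1 and 62.8 in the LNCaP controls and 22.8 and 39.6 after CTCF siRNA.

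The rule narrowed the sites in steps. In LNCaP, 26239 of the 33377 control sites had a peak in neither depleted library, which is 78.6% of all sites tested. Of the 33377, 24221 (72.6%) also had a peak in both standard IMR90 controls and are called bound in both lines. In IMR90 the loss was less frequent, with 5579 of those 24221 sites, 23.0%, having a peak in neither depleted library. Of the same 24221 sites, 17475 were lost in LNCaP. The study reports a smaller drop of CTCF mRNA in IMR90 than in LNCaP, and more reads for the IMR90 CTCF siRNA libraries. Their part in this difference was not tested here. The sites lost in both lines made up 22.5% of the sites bound in both lines and 31.2% of the 17475 that were lost in LNCaP and bound in IMR90. Nearly all IMR90 losses fell in LNCaP losses, since 5458 of 5579 (97.8%) had also lost their LNCaP peak and 121 had not. The LNCaP peak was lost at 17475 of all 24221 sites, so a large overlap was likely in any case. These shares follow from the lists that chose the sites and are given as a description.

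The number depends on how long the lists are. The LNCaP CTCF siRNA lists held 3732 and 7736 peaks and the IMR90 CTCF siRNA lists 19180 and 18539, against 35719 to 46365 in the 4 standard controls. With all 8 standard lists cut to as few peaks as the shortest one, keeping those of lowest p-value, 155 sites met the rule. With a peak in either control replicate in place of both, 11715 did. Near the edge of the rule, 3472 sites bound in both lines missed it by a single CTCF siRNA peak, and that peak was in an IMR90 library for 1960 and 1414 of them and in a LNCaP library for 5 and 93.

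Just inside the rule stood an intronic site of ROBO1, the gene of a Slit receptor in axon guidance, at chr3:79037522-79037851. Its lowest control −log10 q was 1.41, in IMR90 control replicate 1, where its fold enrichment was 2.67. An intergenic site at chr9:32350761-32351011 was as close, with a lowest −log10 q of 1.44. Just outside stood an intergenic site at chr14:85662207-85662588 and an intronic site of CECR2, a bromodomain gene, at chr22:17980773-17981100. Each had 1 CTCF siRNA peak, in IMR90 replicate 1, with a −log10 q of 1.32 and a fold enrichment of 2.96.

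Further sets of LNCaP control sites serve below as comparisons. The persistent sites, 2872, were bound in both lines and had a peak in all 4 standard CTCF siRNA libraries. A second set, 8643 sites, was lost in LNCaP but had a peak in both IMR90 CTCF siRNA libraries. The last set, 6131 sites, was lost in LNCaP and had no peak in either IMR90 control. Wilson and Newcombe intervals on shares of sites cover counting error only.

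The sites lost in both lines were weak in control cells of both lines. Their median fold enrichment, the height of a peak over its local background, was 8.43 and 10.3 in the LNCaP controls and 8.63 and 8.93 in the IMR90 controls. As the mean over the replicates of a line, the median was 9.51 in LNCaP and 8.87 in IMR90, against 24.6 and 24.5 at persistent sites and 15.2 and 17.9 at sites lost in LNCaP and kept in IMR90. Sites lost in LNCaP and not bound in IMR90 were weaker still, at 7.82 in LNCaP. The rule used these libraries, so the order is given without a test. Since these are bulk samples, fewer cells with CTCF at a site and weaker binding in each cell cannot be told apart.

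**Figure D1:**
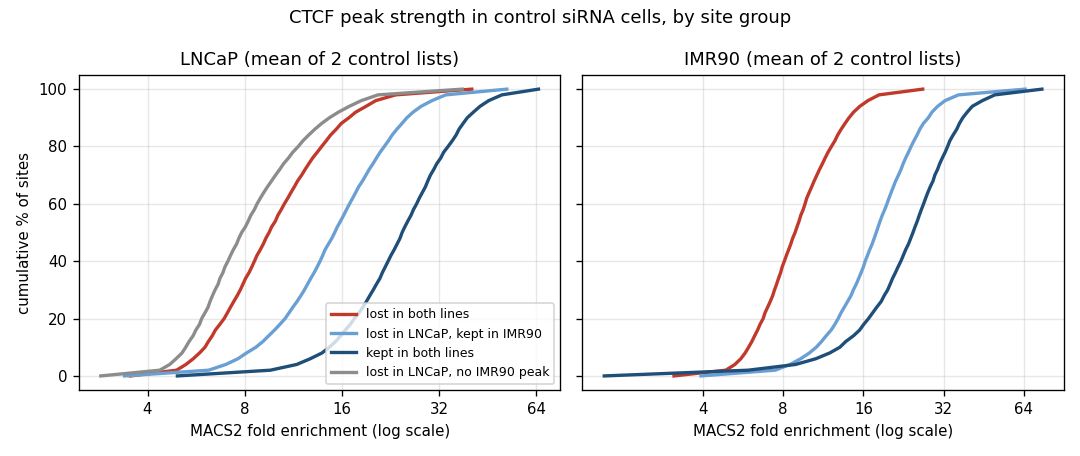
Cumulative percent of sites (vertical axis) against MACS2 fold enrichment in control siRNA cells on a log scale (horizontal axis), as the mean of the 2 control lists of LNCaP (left) and IMR90 (right), one line per site group. The curve of the sites lost in both lines has its median at 9.51 in LNCaP and 8.87 in IMR90, to the left of the persistent sites at 24.6 and 24.5.

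By the mean of the 4 standard controls, the lost sites ran from 4.10 to 27.9. Their upper quartile of 11.7 lay below the lower quartiles of the sites kept in IMR90, 13.3, and of the persistent sites, 19.6. The sites bound in both lines were split by this mean into 4 strength bins of equal size. The lost sites made up 60.3% of the weakest bin (3652 of 6055), 23.6% of the next, 5.76% of the one above and 0.413% of the strongest (25 of 6056). A strong control peak was thus rare among them.

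The order of strength among them was shared within a line more than between lines. Across the 5458 sites, the Spearman correlation of fold enrichment was 0.69 between the LNCaP controls and 0.58 between the IMR90 controls. Between the lines it was 0.16 for replicate 1 and 0.14 for replicate 2. Over the 24221 sites bound in both lines the same figures were 0.83, 0.86, 0.54 and 0.59. The points share libraries, and the lost sites span a narrower range of strength than all bound sites, so the values are descriptions.

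The 6 strongest sites show the spread between the lines. The strongest, at chr15:94662917-94663741, lies between genes, 12172 bp from the nearest start, that of the long non-coding RNA LINC01581. Its fold enrichment was 39.2 and 33.2 in LNCaP (36.2 ± 4.20, SD, n = 2) and 22.3 and 16.7 in IMR90 (19.5 ± 3.96, SD, n = 2). It had peaks of 5.70 and 8.50 in the low-cell controls and none in the low-cell CTCF siRNA libraries.

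The site at chr5:180608831-180609301, in an intron of LINC01962, reached 25.1 and 37.6 in LNCaP and 24.2 and 23.2 in IMR90. A UTR site of DLL4, the gene of a Notch ligand of the vascular endothelium, at chr15:41230147-41230901, had 35.3 and 45.4 in LNCaP and 14.2 and 15.0 in IMR90, with no motif match within 2 mismatches. At this site every LNCaP control was above both IMR90 controls. The BPIFB4 site at chr20:31683662-31684185 had 32.4 and 39.4 in LNCaP and 19.4 and 17.0 in IMR90.

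A site in an intron of NRXN3, which encodes a neurexin of synaptic contacts, at chr14:79224594-79225171, had 22.5 and 40.2 in LNCaP and 21.1 and 23.2 in IMR90, and no motif match within 2 mismatches. A site in an intron of KCNA2, a voltage-gated potassium channel gene, at chr1:111158325-111158793, had 26.9 and 43.6 in LNCaP and 18.9 and 15.9 in IMR90. In 5 of these 6 sites both LNCaP values were higher than both IMR90 values, and at the NRXN3 site the lines overlapped.

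The motif was present at fewer of the lost sites than at other sites bound in both lines. The 14-base CTCF consensus motif was searched on both strands within 100 bp of the LNCaP summit, with up to 2 mismatches. A match was found at 3649 of the 5458 sites, 66.9% (65.6 to 68.1%), against 91.0% of the persistent sites and 81.8% of the sites kept in IMR90. The share was lower by 24.1 percentage points than at persistent sites (Newcombe interval of the difference −25.7 to −22.5) and by 14.9 points than at sites kept in IMR90 (−16.4 to −13.4). It was 10.6 points higher than at sites lost in LNCaP and not bound in IMR90 (8.79 to 12.3), of which 56.3% had a match.

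All LNCaP control sites together had a match in 74.0%, and windows of the same length centred 1000 bp from the summits of the lost sites had one in 4.45%. The motif is thus enriched at the lost sites in comparison with their surroundings while being less frequent than at the sites that stayed.

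The matches were also poorer. A match without a mismatch stood at 5.55% of the lost sites (303), 27.6% of the persistent sites and 13.3% of the sites kept in IMR90. With up to 1 mismatch the shares were 33.4%, 70.0% and 49.5%. A match with exactly 2 mismatches was the most common class at the lost sites, 33.4%, and 33.1% (1809 sites) had no match within 2 mismatches. A second match in the same window was rare, at 3.06% of the lost sites and 8.84% of the persistent sites.

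**Figure D2:**
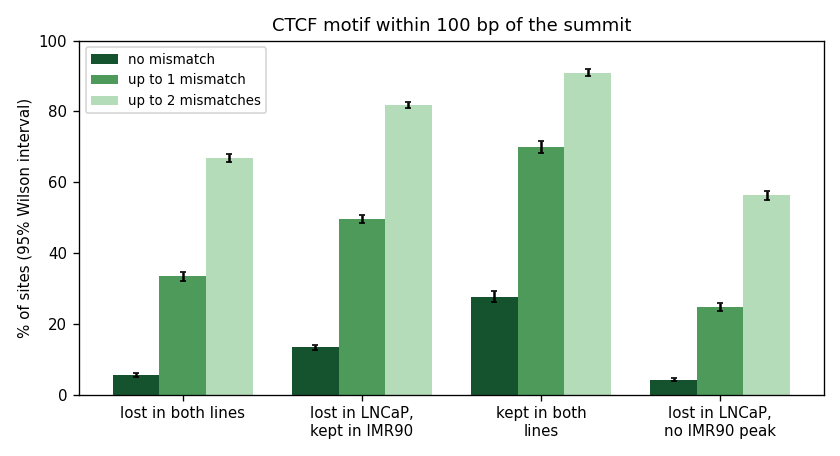
Percent of sites (vertical axis) with a CTCF motif within 100 bp of the LNCaP summit, with no mismatch, up to 1 or up to 2 mismatches (bars from dark to light), for each site group, with 95% Wilson intervals. At the sites lost in both lines the 3 bars reach 5.55%, 33.4% and 66.9%, and at persistent sites 27.6%, 70.0% and 91.0%.

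Strength and motif go together, so the motif was also compared within the 4 strength bins, a comparison added after the data were seen. The bins are wide, and strength was not matched within them. The weakest ran from 4.10 to 10.9. By the same mean, the sites kept in IMR90 had a 10th percentile of 10.8, and the lost sites a median of 9.51. The part of strength in the differences that remain within a bin was not tested. In the weakest of the 4 bins, 63.6% of the lost sites had a match against 80.4% of the sites kept in IMR90, a difference of −16.8 points (−19.7 to −13.7). The 86 persistent sites in that bin went the other way, with a match at 37.2%, so the lost sites were 26.4 points higher (15.7 to 36.0). In the 3 stronger bins 92.0 to 94.2% of the persistent sites had a match. In the next bin the shares of lost sites and of sites kept in IMR90 were 72.6% and 81.5%, a difference of −8.90 points (−11.7 to −6.16). In the bin above they were 76.2% and 82.3%, and the interval of the difference, −10.9 to −1.65 points, excluded 0. In the strongest bin, with 25 lost sites, it ran from −21.0 to 9.43 points and held 0. Among the lost sites the share with a match rose with strength, from 63.6% to 80.0% over the 4 bins, while at sites kept in IMR90 it stayed between 80.4% and 82.3%.

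Between the lost and the persistent sites, departures from the consensus differed most in the last 4 bases of the motif. Of the 3649 matches at lost sites, 25.7% departed at position 12 (24.3 to 27.1%), against 11.6% at persistent sites (10.4 to 12.8%) and 22.5% at sites kept in IMR90. At position 13 the share was 10.0% against 2.07%, at position 14 17.2% against 8.80%, and at position 11 14.1% against 8.27%. At positions 3 and 5 the lost and the persistent sites had overlapping intervals, with 17.3% against 16.2% and 14.9% against 16.0%. Sites lost in LNCaP and not bound in IMR90 departed at position 3 in 23.7%, more often than both. Position 2, a near-invariant C, departed in 1.89% against 0.383%.

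**Figure D3:**
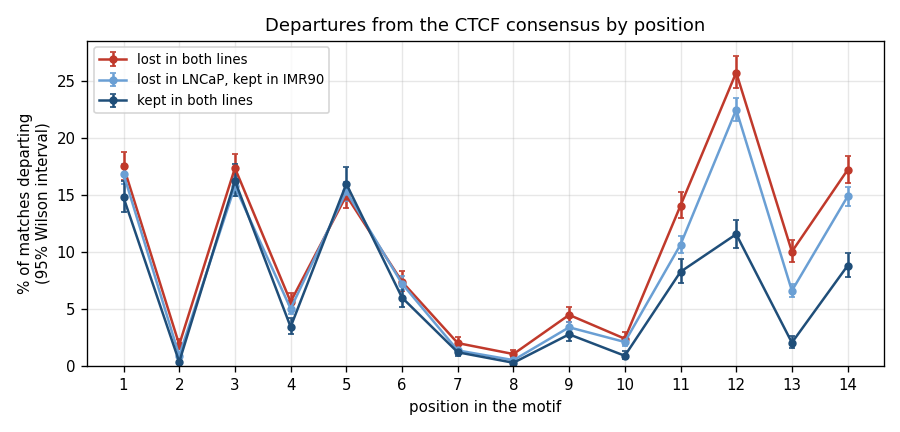
Percent of motif matches that depart from the consensus (vertical axis) at each of the 14 positions (horizontal axis), for sites lost in both lines, sites lost in LNCaP and kept in IMR90, and persistent sites, with 95% Wilson intervals. The groups lie close together at positions 3 and 5 and furthest apart at position 12, where the values are 25.7%, 22.5% and 11.6%.

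The lost sites held few CG dinucleotides. CG is the context in which cytosine is methylated in human cells, and methylation of certain CGs in the CTCF motif is known to hinder binding. Methylation was not measured in these lists. A CG lay within the match at 16.5% of the lost sites with a match, 49.8% of the persistent ones and 29.2% of those kept in IMR90. The difference from persistent sites was −33.3 points (−35.5 to −31.0). Within 100 bases of the summit the lost sites had a median of 2 CGs and a median GC content of 44.8%, and the persistent sites 5 CGs and 52.2%. Sites kept in IMR90 had 3 CGs and 47.3%, and sites not bound in IMR90 had 2 CGs and 48.3%. In the weakest strength bin the median GC content was 44.8% at lost sites, 43.3% at sites kept in IMR90 and 48.3% at persistent sites. In the next bin it was 44.3%, 44.8% and 47.8%. Windows 1000 bp away had a median GC content of 41.8% beside the lost sites and 46.3% beside the persistent ones, so the surroundings differed in the same direction.

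A G at position 13, which makes a CG where position 12 holds a C, was found in 32.8% of the matches at lost sites and 53.4% of those at persistent sites, where an A stood in 57.1% and 44.5%. The matches at the lost sites used many words, with 1977 different 14-base words in 3649 matches. The words below are among the 8 most frequent at lost sites, were picked after their counts were seen, and are shown because they differ in how often persistent sites hold them. All 14 bases are in capitals.
Without a mismatch, 27 lost and 43 persistent sites: CCAGCAGAGGGCAG
Without a mismatch, 21 lost and 33 persistent sites: CCAGCAGGTGGCAG
With 1 mismatch, 29 lost and 2 persistent sites: CCACCAGAGGGCTC
With 1 mismatch, 25 lost and 2 persistent sites: CCACTAGATGTCAG
With 1 mismatch, 18 lost and 0 persistent sites: CCACTAGATGCCAG
The 2 words without a mismatch made up 0.740% and 0.576% of the matches at lost sites and 1.65% and 1.26% of the 2613 matches at persistent sites. The 3 printed words with a mismatch were found at 2 or fewer persistent sites. A further word with 1 mismatch among the 8 stood at 27 lost and 13 persistent sites, and a further word without one made up 0.466% and 0.459% of the matches, so not every frequent word differed in this way. Their neighbourhoods were partly alike, since the 20 bases on each side were identical in at least 50% of positions for 37.7%, 41.7% and 28.8% of the pairs of lost sites that shared them, against 0.285% and 0% for the first 2 words.

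Position in the genome separated the lost sites less than sequence did. A transcription start lay within 1 kb of 879 of them, 16.1% (15.2 to 17.1%), against 16.2% of all LNCaP control sites and 14.7% of the persistent sites, and the difference from the latter, 1.45 points, had an interval of −0.198 to 3.04 points that held 0. The median distance to the nearest start was 7994 bp. By the annotation of the summit base, 58.2% lay in introns, 31.3% between genes, 3.79% in UTRs and 2.29% in coding exons. Persistent sites were more often between genes, 49.3%, and less often in introns, 43.0%. The intervals of both differences excluded 0 (12.9 to 17.4 points for introns). Introns held 53.4% of all LNCaP control sites and 55.2% of those kept in IMR90, and 36.4% and 33.8% lay between genes. Coding exons held 0.662% of the persistent sites, 2.06% of all LNCaP control sites and 1.77% of those kept in IMR90. The persistent sites thus lay further from all sites than the lost ones did.

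Across chromosomes, the share of the sites bound in both lines that was lost in both ranged from 14.9% on chromosome 19 (130 of 873) to 27.3% on chromosome 5 (370 of 1356). Chromosome 22 was next lowest, at 16.9%, and chromosomes 21 and X were high, at 26.4% and 25.6%. Chromosomes with GC-rich CTCF sites had lower shares: over the 23 chromosomes, the share and the median GC content of the LNCaP control sites had a Pearson correlation of −0.85 and a Spearman correlation of −0.74, given as a description because chromosomes share the libraries and differ in gene density.

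Neighbouring sites were lost together slightly more often than others. The next site bound in both lines along the chromosome was also lost in both for 25.3% of them, against 21.7% after the other sites, and 75.2% of the runs of lost sites were a single site. Runs of 6 were found, one of them on chromosome 1 (220219753 to 220454778), which spans EPRS1 and IARS2, genes of a cytosolic and a mitochondrial aminoacyl-tRNA synthetase, together with BPNT1 and RAB3GAP2. A run of 7 covered 4677166 bp of chromosome 4. The median distance from a lost site to the nearest persistent site was 313846 bp, against 290077 bp over all LNCaP control sites and 195713 bp from one persistent site to the next. Lost sites were narrower, with a median width of 361 bp against 472.5 bp, and their summits in LNCaP and IMR90 lay a median of 25 bp apart, against 14 bp at persistent sites.

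The low-cell IMR90 libraries were not used to choose the sites. The labels do not say whether they came from the same cultures as the standard libraries, so they may not be an independent treatment of cells. A low-cell peak was present at 1402 of the 5458 sites (25.7%) in control replicate 1 and at 1248 (22.9%) in control replicate 2. After CTCF siRNA it was present at 9 sites (0.165%) in replicate 1 and at 0 of 5458 in replicate 2. By counting error alone, replicate 2 allows up to 0.0550% by the limit of 3 counts and 0.0703% by the Wilson interval. Replicate 1 lay above both limits, which do not cover the spread between libraries. Both control libraries thus stood above both CTCF siRNA libraries. The mean share was 24.3% ± 2.00 (SD, n = 2) in control and 0.0824% ± 0.117 (SD, n = 2) after CTCF siRNA, a difference of 24.2 percentage points with p = 0.33 in a two-sided exact permutation test, the smallest p that 2 against 2 libraries can give. The low-cell CTCF siRNA lists were short, with 5193 and 2057 peaks against 20383 and 19226 in the controls.

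**Figure D4:**
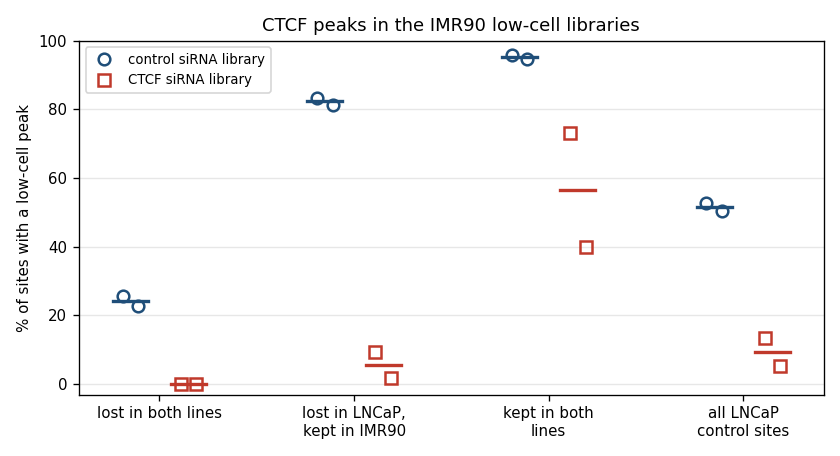
Percent of sites with a CTCF peak in each IMR90 low-cell library (vertical axis) for 4 groups of sites, with circles for the 2 control siRNA libraries, squares for the 2 CTCF siRNA libraries and bars for their means. Sites lost in both lines go from 25.7% and 22.9% to 0.165% and 0%, and persistent sites from 95.7% and 94.8% to 73.2% and 39.8%.

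Other sites lost low-cell peaks too. Among all sites bound in both lines the share went from 69.4% and 66.8% to 18.0% and 7.03%. It went from 83.4% and 81.2% to 9.38% and 1.67% at sites lost in LNCaP and kept in IMR90, and from 95.7% and 94.8% to 73.2% and 39.8% at persistent sites. The persistent sites were the only one of these groups in which a CTCF siRNA library still had a peak at over 20% of the sites.

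Site by site, 843 lost sites had a peak in both low-cell controls, and 835 of them, 99.1% (98.1 to 99.5%), had none in either low-cell CTCF siRNA library. The background was high: of the 15379 LNCaP control sites with both low-cell control peaks, 71.1% had none after CTCF siRNA. The share was 87.9% (87.0 to 88.6%) at sites lost in LNCaP and kept in IMR90 and 22.8% at persistent sites. Within the weakest bin by standard control strength it was 99.0% (473 of 478) at the sites lost in both lines and 83.5% (456 of 546) at those kept in IMR90, and in the next bin 98.9% and 85.8%. The intervals in the weakest bin, 97.6 to 99.6% against 80.2 to 86.4%, did not overlap, but they treat sites of the same libraries as independent. The bins sort sites by strength in the standard controls only and do not match it within a bin. In the low-cell controls the median peak at the sites lost in both lines was weaker, 6.17 and 5.96 against 8.15 and 7.75 at those kept in IMR90, and in the weakest bin 21.5% against 71.9% had a peak in control replicate 1. The part of this difference in the loss was not tested.

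Most lost sites could not be followed in the low-cell data, since 3651 (66.9%) had no peak in either low-cell control. These were weaker in the standard controls, with a median of 9.10 against 10.4 at the 843 sites with both low-cell peaks, and had a motif match less often, in 61.3% against 80.7%.

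No site lost in both lines had a peak in both low-cell CTCF siRNA libraries. The 9 with a peak in replicate 1 had fold enrichments there of 5.23 to 20.9, and 8 of them had peaks in both low-cell controls. They were rich in GC, with a median of 69.7% and a range of 37.3 to 79.6%, and 4 lay within 1 kb of a start and 5 were covered by H3K4me3 in all 4 LNCaP libraries. One stood in an intron of ADCY4, an adenylyl cyclase gene, at chr14:24802641-24803227, with 14.2 and 10.2 in the low-cell controls and 5.71 in CTCF siRNA replicate 1. Another lay 106 bp from a start of PLCB3, a phospholipase C gene, at chr11:64018460-64019082, with 12.3 and 10.2 in the controls and 11.4 after CTCF siRNA. These sites were picked out after their values were seen.

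H3K27ac, a mark of active enhancers and promoters, covered about as many of the lost sites with and without CTCF siRNA. A region overlapped 19.5% and 15.2% of them in the control libraries (17.3% ± 2.99, SD, n = 2) and 17.6% and 20.5% after CTCF siRNA (19.1% ± 2.06, SD, n = 2). The groups overlapped, and the difference of 1.72 points had p = 0.67 in a two-sided exact permutation test. The same difference was 2.24 points over all LNCaP control sites. Leaving out control replicate 2 turned its sign, to −0.394 points.

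H3K4me3, a mark of active promoters, overlapped 11.1% and 13.7% of the lost sites in control (12.4% ± 1.81, SD, n = 2) and 11.7% and 15.0% after CTCF siRNA (13.3% ± 2.34, SD, n = 2). Again the groups overlapped, with a difference of 0.889 points (p = 0.67, two-sided exact permutation test) beside 1.60 points over all LNCaP control sites. Its sign turned without control replicate 1, to −0.394 points, and without CTCF siRNA replicate 2, to −0.770 points.

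**Figure D5:**
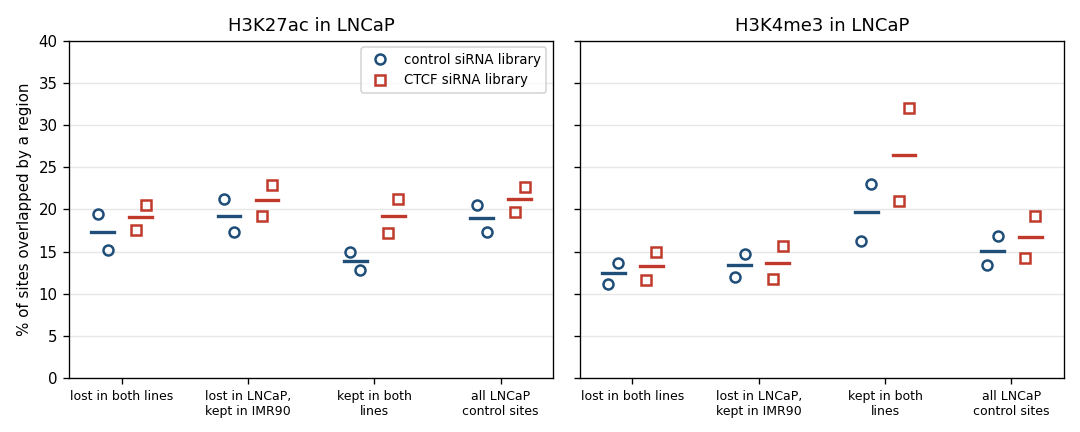
Percent of sites overlapped by a H3K27ac region (left) or a H3K4me3 region (right) in each LNCaP library (vertical axis) for 4 groups of sites, with circles for control siRNA libraries, squares for CTCF siRNA libraries and bars for their means. At the sites lost in both lines the treatments overlap for both marks, with H3K27ac between 15.2% and 20.5% and H3K4me3 between 11.1% and 15.0%.

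No H3K27ac region overlapped 4088 of the lost sites (74.9%) in any of the 4 libraries, and 682 (12.5%) were overlapped in all 4, beside 71.8% and 13.6% of all LNCaP control sites. For H3K4me3 the numbers were 4535 (83.1%) and 542 (9.93%), beside 78.0% and 11.3%. H3K27ac was present in both controls and in neither CTCF siRNA library at 45 sites (0.824%), beside 1.03% of all LNCaP control sites, and the opposite pattern stood at 73 (1.34%), beside 2.07%. H3K4me3 was present in the controls only at 16 (0.293%), beside 0.500%, and in the CTCF siRNA libraries only at 27 (0.495%), beside 0.950%. None of these 4 shares was above that of all sites. The mark was seen after CTCF siRNA only at 3.86% (3.22 to 4.63%) of persistent sites for H3K27ac, against 1.07 to 1.68% at lost sites. For H3K4me3 it was 2.72% (2.18 to 3.38%) against 0.340 to 0.719%. These intervals treat sites of the same libraries as independent. Over libraries, the treatment difference at persistent sites had p = 0.33 for H3K27ac and 0.67 for H3K4me3 (two-sided exact permutation tests). The CTCF siRNA lists held 94629 and 99158 H3K27ac regions against 87147 and 70100 in control. For H3K4me3 they held 41245 and 59921 against 36638 and 48606. The part of list length was not tested at persistent sites.

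For each of these patterns only the 3 sites of highest control strength are named. H3K27ac was present in the controls only at an intronic site of HVCN1, the gene of a voltage-gated proton channel, at chr12:111135946-111136511, where CTCF fold enrichment was 25.3 and 28.4 in LNCaP and 11.8 and 13.3 in IMR90. The same pattern stood at an intergenic site at chr2:121886323-121886686 and at an intronic site of GLCCI1, a glucocorticoid-induced gene, at chr7:8075565-8075972. None of these 3 had a H3K4me3 region in any library.

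The opposite pattern, H3K27ac after CTCF siRNA only, stood at an intronic site of MIR4300HG at chr11:82406612-82407191, with CTCF at 28.6 and 34.7 in LNCaP and 6.60 and 9.81 in IMR90. There H3K4me3 too was present in both CTCF siRNA libraries and neither control. It also stood at an intergenic site nearest to the start of SFXN1, a mitochondrial serine transporter gene, at chr5:174960932-174961537, and at an intronic site of the zinc-finger gene ZNF684 at chr1:40998511-40998875, where H3K4me3 was present in all 4 libraries.

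H3K4me3 was present in the controls only at an intronic site of JPH3, a junctophilin gene, at chr16:87669056-87669451, where H3K27ac had the same pattern. At chr17:55198675-55199107, 5367 bp from a start of AKAP1, which encodes a mitochondrial anchor of protein kinase A, and at an intronic site of FBXW11, an F-box gene, at chr5:171429278-171429688, H3K4me3 was absent after CTCF siRNA while H3K27ac was present in all 4 libraries. Of the 27 sites with H3K4me3 after CTCF siRNA only, the other 2 named were at chr17:35062528-35062984 and, nearest to the start of the receptor gene ADGRG7, at chr3:100322281-100322634. No read counts underlie these patterns, so a region just under the threshold counts as absent.

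Genes of the loop machinery themselves lay near lost sites. Within 10 kb of the 18 genes of the CTCF and cohesin list, 9 of the 30 sites bound in both lines (30.0%) were lost in both, near 8 genes, beside 22.5% over all sites bound in both lines. One lay in an intron of YY1, a zinc-finger factor also found at loop anchors, at chr14:100713182-100713541, with 9.99 and 19.9 in LNCaP and 22.2 and 22.1 in IMR90. Another lay in an intron of STAG2, a cohesin subunit gene, at chrX:123345205-123345530, with 11.7 and 16.3 in LNCaP and 15.7 and 16.0 in IMR90. The STAG2 site held a match without a mismatch and was lost all the same, as was an intronic site of the collagen gene COL5A1 with the same word. Both are printed because they are among the 303 lost sites whose match had no mismatch.
Lost, STAG2, chrX:123345365-123345378, plus strand: tagtatctCCACCAGAGGGCAGacagtaaa
Lost, COL5A1, chr9:137670914-137670927, plus strand: agttctgaCCACCAGAGGGCAGccggcagg

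In the androgen-regulated prostate list, 5 of 20 sites bound in both lines were lost in both. The strongest was in an intron of HERC3, a ubiquitin ligase gene, at chr4:89580508-89580919, with 28.8 and 25.6 in LNCaP and 25.3 and 24.4 in IMR90, no match within 2 mismatches and no low-cell peak. The next was in an intron of TRPM8, the gene of a cold-sensing channel of prostate epithelium, at chr2:234837249-234837745, with 9.75 and 15.7 in LNCaP, 12.0 and 15.4 in IMR90, and 9.96 and 9.76 in the low-cell controls. In the KLK locus, which holds the kallikrein genes, 3 of the 9 sites bound in both lines were lost in both. The strongest of them, at chr19:51524225-51524646, 1039 bp from a start of KLK10, had 15.2 and 18.3 in LNCaP, 13.2 and 19.3 in IMR90 and 6.10 and 6.23 in the low-cell controls. The other 2, at chr19:51611862-51612171 and chr19:51614934-51615183, lay outside the study's kallikrein locus, nearest to CTU1. Both were weak, between 5.19 and 11.9 in every control.

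In the list of fibroblast matrix and mesenchymal genes, 6 of 30 sites were lost in both lines. One was in an intron of DCN, which encodes the matrix proteoglycan decorin, at chr12:91571793-91572163, with 17.0 and 11.0 in LNCaP and 14.2 and 13.7 in IMR90. The COL5A1 site at chr9:137670602-137671136 had 14.4 and 13.7 in LNCaP, 11.6 and 13.1 in IMR90 and 8.07 and 6.39 in the low-cell controls. The shares of the prostate and fibroblast lists, 25% and 20%, lay near the 22.5% over all sites bound in both lines. Nothing is read from them.

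Lost sites near developmental gene clusters are given beside the 22.5% over all sites bound in both lines. Near HOX genes, the patterning genes of the body axis, 3 of 18 sites bound in both lines were lost in both and 6 were persistent. The lost ones included a coding exon of HOXC10 at chr12:54382915-54383341, with 11.0 and 13.6 in LNCaP and 6.94 and 5.28 in IMR90, and a UTR of HOXB8 at chr17:46690198-46690877, with 7.07 and 6.75 in LNCaP and 12.1 and 7.15 in IMR90. Near the clustered protocadherins, whose promoter choice in neurons uses CTCF, 1 of 18 was lost in both lines, in a coding exon of PCDHA5 at chr5:140201626-140202053, with 17.8 and 22.7 in LNCaP and 7.90 and 7.74 in IMR90.

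Near imprinted genes 6 of 26 sites (23.1%) were lost in both lines, beside 22.5% of all sites bound in both, and 5 were persistent. The lost ones lay near GRB10, an adaptor of insulin signalling, KCNQ1, a potassium channel gene, and RB1. The GRB10 site at chr7:50764407-50764867 had 10.4 and 16.5 in LNCaP and 10.5 and 7.74 in IMR90, and the KCNQ1 site at chr11:2858241-2858613 had 12.9 and 13.7 in LNCaP and 5.55 and 9.58 in IMR90. Both lay in introns.

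Housekeeping genes had 4 of 17 sites lost in both lines and cell cycle genes 7 of 26. Near CDK1, the kinase that drives entry into mitosis, the site at chr10:62528543-62528928 had 12.4 and 19.5 in LNCaP and 10.9 and 10.1 in IMR90. Near CDK4, a kinase of the G1 phase, a UTR site of the neighbouring MARCHF9 at chr12:58153059-58153515 had 12.5 and 15.9 in LNCaP and 10.5 and 7.74 in IMR90. Over the 8 lists the share of sites lost in both lines ran from 5.56% at the protocadherins to 30.0% at the CTCF and cohesin genes, with 17 to 30 sites in each list, and nothing is read from its distance to 22.5%.

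Prostate luminal promoters carried both marks in nearly every LNCaP library, and a part of the fibroblast promoters did too. Of 9 prostate luminal genes, 8 or 9 had a H3K4me3 region at their promoter in each library and 9 had H3K27ac. Of 9 fibroblast genes, 4 to 7 had H3K4me3 and 3 to 5 H3K27ac, so that list was not free of the marks. COL3A1 had no H3K4me3 region in any library, but it had H3K27ac in control replicate 1 and CTCF siRNA replicate 1. IMR90 has CTCF lists only, so its identity was not checked here.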

How the data were processed

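The standard CTCF libraries were aligned by the authors to hg19 with Bowtie and peaks were called per library with MACS2 at a false discovery rate of 0.05. Low-cell libraries were trimmed with cutadapt and aligned with BWA, with peaks called by MACS2. The deposited CTCF lists give, from the authors' calls, each peak's fold enrichment (a ratio over the local background, unscaled between libraries) with its p-value and q-value as −log10. For the histone marks the authors used PeakRanger, and the deposited regions carry a score of unstated meaning, used here only to rank regions. The lists hold no read counts, so depth is unknown from them. LNCaP CTCF siRNA replicate 1 had the shortest standard list, and the study's reporting summary gives it several times fewer reads than its fellow replicate. The part of depth in the loss of peaks was not tested beyond shortening the lists and leaving out libraries.

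Peaks were joined by an overlap of 1 bp. Sites were annotated at the summit of LNCaP control replicate 1 with GENCODE release 44 on hg19 coordinates, counted from 1. Shares carry 95% Wilson intervals, differences of shares Newcombe intervals, and treatments were compared by exact permutation over libraries. Site building was tested on simulated peaks. The motif search was tested on random sequence with planted matches that had no mismatch, so matches with mismatches were not tested. Python 3.11.15, numpy 2.4.6, pandas 2.3.3, scipy 1.17.1, pysam 0.24.0 and matplotlib 3.10.9 were used.

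The sites and lists were chosen with earlier results of these data known. Named sites are the 6 strongest, those nearest the rule's edge and, for each mark and direction, the 3 strongest with a one-sided pattern. Those of the KLK region and up to 2 per gene list are named too. None of these is on chromosome 8. Sites lost in both lines with a peak in both low-cell CTCF siRNA lists were also to be named, and there were 0.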

Additional observations from a re-analysis of the deposited data

How the results depend on the processing

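Of 116 recomputed values, 95 stayed within 1.5 times the count, within the interval of the share or on the same side of 0, 18 moved and 3 changed sign. The number of sites lost in both lines was 155 with all 8 standard lists shortened to the shortest and 11715 with a peak in either control replicate, and 5463 to 7418 with one library left out. The low-cell difference stayed between 16.6 and 31.8 percentage points (21.4 to 31.8 with one library left out). The share losing its low-cell peak again was 99.8% with replicate lists of equal length, 97.4% with a peak in either control and 98.1 to 100% with one library left out. The motif share was 59.2% with a peak in either control, 33.4% with up to 1 mismatch, 60.2% within 50 bp, 63.6% in the weakest strength bin and 63.0 to 69.1% with one library left out. Sites near a start were 39.3% within 5 kb, 11.7% with protein-coding starts, 17.7% in the weakest bin and 15.2 to 17.5% with one library left out. Leaving out one library, the H3K27ac difference ran from −0.394 points (without control replicate 2) to 3.84 (without control replicate 1), by way of 0.266 and 3.18 without CTCF siRNA replicates 2 and 1. The H3K4me3 difference ran from −0.770 (CTCF siRNA replicate 2 omitted) and −0.394 (control replicate 1 omitted) to 2.17 (control replicate 2 omitted) and 2.55 (CTCF siRNA replicate 1 omitted). With lists of equal length the differences were 0.366 and 0.101 points. The cause was not tested, apart from settings that by construction use fewer peaks, fewer mismatches, another distance or fewer sites. The replicate block left the differences as they were (24.2, 1.72 and 0.889 points), with exact permutation p-values of 0.50, 1 and 0.50. The labels share only a number between treatments, and 0.50 is the smallest p that the block allows. The comparison by strength bin was added after the data were seen. With 2 libraries a group the exact permutation test cannot go below 0.33, and lists without counts limit every statement to presence above a threshold.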
